A study of Mus musculus with 24 samples.

Results

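Expression of 7 receptor genes that guide lymphocytes into, within and out of lymphoid tissue was followed in CD4+ T cells: Ccr7, S1pr1, S1pr4, Ccr4, Cxcr4, Cxcr5 and Gpr183. They were chosen by name, as receptors with known roles in homing and egress, and make up 7 of the 22009 named genes in the table. Earlier results of these data were known when they were chosen, so the shares of members called below are descriptive. The series consists of 24 RNA sequencing libraries of splenic CD4+ T cells of adult WT C57BL/6 mice, made to follow transcription through the first day of T-helper (Th) differentiation. The time course held 20 of them: 2 libraries of unstimulated (resting) cells and 18 of cultures, with 1 library for each of 3 conditions at 4, 8, 12, 16, 20 and 24 h. All cultures received anti-CD3e and anti-CD28, which stand in for antigen and costimulation, and nothing else in the Th0 condition. For Th1, an antibody to IL-4 was added together with IL-12. For Th2, antibodies to IL-12 and IFNG were added together with IL-4. In 4 further libraries, actinomycin, a blocker of transcription, had been present for 0, 1, 2 or 4 h after 16 h of stimulation, in a skewing condition not given in the sources used here.

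The members are G-protein-coupled receptors. Naive T cells enter lymph nodes with the help of CCR7, which senses CCL19 and CCL21, and leave them along a gradient of the lipid sphingosine 1-phosphate (S1P), sensed by S1PR1. CXCR5 and GPR183 position cells relative to B cell follicles, the former through CXCL13 and the latter through an oxysterol, whereas CXCR4 senses CXCL12 and CCR4 senses CCL17 and CCL22 and is a well-known marker of Th2 cells. After activation, T cells are known to be held in the lymph node for a time by loss of S1PR1 from the surface, and transcription of S1pr1 depends on the factor KLF2.

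Values are RPKM as deposited, that is, read numbers scaled to transcript length and to the mapped reads of the library. The number of mapped reads recovered from them was between 17512385 and 33017133 over the 18 cultures, 19759081 and 23541816 in the resting libraries, and 18052931 to 25735543 with actinomycin. The summed level of 8 CD4+ T cell markers, none of which was at 0, was 1909 to 1925 RPKM at rest and 1289.6 to 1587 in the cultures. Transcripts of other spleen cells were also present, and their marker sums were lower at 24 h than at rest, though not all fell steadily. The sum over 13 B cell markers was 113 to 121 RPKM at rest and 17.8 to 26.0 at 24 h, and that over 14 markers of monocytes and macrophages 624 to 639 and 11.2 to 15.4, with Vsig4 at 0 in all cultures from 8 h. The sum over 7 red blood cell genes was 38837 to 42382 at rest, 29387 to 47109 at 4 h and 142 to 212 at 24 h. That over 7 markers of NK and CD8 T cells was 129 to 131 RPKM at rest, 91.2 to 196 at 4 h and 54.0 to 75.8 at 24 h. Among these markers, Cd8a was not called at 24 h against rest and Eomes was called higher (limma). In bulk RNA, fewer cells of a type and less RNA per cell cannot be told apart. The resting libraries carry another tag in their labels than the cultures, so a difference between preparations and activation cannot be told apart.

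Transcripts of the 7 members differed widely in level at rest, where RPKM allows genes to be compared per length. S1pr1 (133.5 ± 1.80 RPKM, SD, n = 2), Ccr7 (127.5 ± 4.24) and Cxcr4 (98.2 ± 5.16) ranked 551, 589 and 803 among the 16274 genes above 0. S1pr4 (42.6 ± 2.30) and Gpr183 (33.4 ± 0.433) followed at ranks 2248 and 2899. Cxcr5 (8.09 ± 0.0966) and Ccr4 (6.65 ± 0.271) were the lowest of the 7, at ranks 7695 and 8232. All 7 genes are protein coding and lie on the minus strand of GRCm38, where GENCODE places Ccr7 on chromosome 11 (99144196 to 99155077), S1pr1 on chromosome 3 (115710433 to 115715072) and S1pr4 on chromosome 10 (81497747 to 81500132). Ccr4 (114490316 to 114504916) and Cxcr5 (44511787 to 44561877) are on chromosome 9, Cxcr4 is on chromosome 1 (128588199 to 128592293) and Gpr183 on chromosome 14 (121952551 to 121965195).

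Promoter sequence from RefSeq (GRCm38.p6) could be matched for 4 of the 7 members. The 250 bases before the start are shown for Ccr4 and Gpr183, both higher in Th2 cultures, and for S1pr4, which was lower there. The start is that of a RefSeq transcript, and for Ccr4, with 3 transcripts in GENCODE, the window lies inside the gene as placed above. The sequences are written in the direction of the gene, and capitals mark CACCC on either strand, the core of the box that KLF factors bind.
Ccr4, chr9:114496545-114496794, minus strand: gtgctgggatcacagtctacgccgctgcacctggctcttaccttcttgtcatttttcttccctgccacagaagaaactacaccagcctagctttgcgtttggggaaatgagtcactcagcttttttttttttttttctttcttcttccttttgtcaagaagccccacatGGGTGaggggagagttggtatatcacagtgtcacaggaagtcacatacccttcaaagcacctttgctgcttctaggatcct
Gpr183, chr14:121965194-121965443, minus strand: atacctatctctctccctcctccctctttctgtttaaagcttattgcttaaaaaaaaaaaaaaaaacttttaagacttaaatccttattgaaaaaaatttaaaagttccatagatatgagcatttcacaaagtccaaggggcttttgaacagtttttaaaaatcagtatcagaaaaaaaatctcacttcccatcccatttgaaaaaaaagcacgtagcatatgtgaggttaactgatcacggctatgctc
S1pr4, chr10:81500138-81500387, minus strand: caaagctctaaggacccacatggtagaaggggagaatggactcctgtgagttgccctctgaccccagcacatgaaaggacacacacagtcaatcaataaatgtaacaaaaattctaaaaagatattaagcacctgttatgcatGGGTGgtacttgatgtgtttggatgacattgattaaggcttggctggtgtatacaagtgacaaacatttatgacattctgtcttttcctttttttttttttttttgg
The letters CACCC stood at -81 from the start in Ccr4, at -107 in S1pr4 and at -219 in Cxcr4, and were not in the window of Gpr183. With 3 of 4 windows holding them and 52.0% of all 32851 promoters of the same length, the letters were common everywhere. A GATA motif (AGATAA), a FOXO motif (GTAAACA) and TTC and GAA with either 4 bases (the STAT6 spacing) or 3 bases (the spacing of other STATs) between them were searched on both strands and were in none of the 4 windows. They were in 9.99%, 3.17%, 5.85% and 7.02% of all promoters.

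The members were compared between each time point and rest first. The 3 cultures at a time point, 1 per condition, served as its libraries, so that differences between conditions were part of the spread. A gene was called when it changed at least 2-fold at an adjusted p under 0.05 (limma on log2(RPKM + 0.5), adjusted over all genes tested), a scale which understates the change of low genes. At 4 h, 0 of 7 members were called and 0 had an unadjusted p under 0.05, while 10.6% of all genes were called. Numbers then grew to 1 of 7 at 8 h (18.9% of all genes), 3 at 12 h (27.1%), 4 at 16 h (25.7%) and 4 at 20 h (29.0%). At 24 h, 5 of 7 were called beside 30.1% of all genes, with Ccr7 higher and S1pr1, S1pr4, Cxcr4 and Cxcr5 lower. The same split, 1 higher and 4 lower, was found between cultures at 24 h and at 4 h, where 26.2% of all genes were called and the resting libraries played no part. When condition was a factor in that comparison too, so that cultures were matched by condition, Ccr4 was called higher as well (log2 difference 1.49, limma, adjusted p = 1.07e-08, in place of 0.191).

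Ccr7, the receptor for entry into lymph nodes, was the member called higher than at rest. It was at 125 and 131 RPKM in the resting libraries. In Th0 cultures it was at 157 RPKM at 4 h, 150.0 at 8 h, 216 at 12 h, 359.6 at 16 h, 430.5 at 20 h and 384 at 24 h. In Th1 cultures the values at the same times were 186, 148, 245, 307, 401 and 379 RPKM. All of these were above both resting libraries. In Th2 cultures Ccr7 was at 118, 117, 267, 388, 344 and 244 RPKM, below rest at 4 and 8 h and above it from 12 h. The level was then 242.5 ± 26.0 RPKM at 12 h and 392 ± 43.8 at 20 h (SD, n = 3), and the ranges at 16, 20 and 24 h overlapped. The log2 difference from rest was 1.45 ± 0.204 (SE) at 16 h, 1.61 ± 0.204 at 20 h and 1.36 ± 0.204 at 24 h (limma, adjusted p = 2.65e-05 at 24 h). At 12 h it was 0.92, just under 2-fold (limma, adjusted p = 0.00102).

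S1pr1, the receptor for egress along S1P, had a log2 difference from rest of 0.01 at 4 h and was lower in all cultures from 8 h. The resting libraries held 132 and 135 RPKM. Th0 cultures went from 126 RPKM at 4 h through 117, 60.9, 40.3 and 27.1 to 17.0 at 24 h. Th1 cultures held 157, 76.8, 43.8, 48.4, 26.0 and 11.2 RPKM at the same times. Among the cultures, those in Th2 conditions were lowest at all 6 time points, with 123, 35.0, 19.9, 14.8, 9.19 and 8.94 RPKM. By 24 h the level was 12.4 ± 4.15 RPKM (SD, n = 3), a log2 difference from rest of -3.43 ± 0.571 (SE; limma, adjusted p = 7.04e-05). It was called from 12 h (log2 difference -1.81, limma, adjusted p = 0.0114). The call at 12 h was lost without resting replicate 1 (adjusted p = 0.0535) and without resting replicate 2 (adjusted p = 0.0568), while the log2 difference was -1.83 and -1.80.

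S1pr4, another S1P receptor of lymphocytes, was called against rest at 24 h. Its values were 41.0 and 44.2 RPKM at rest. In Th0 cultures it was at 54.4, 51.5, 38.4, 35.3, 25.6 and 19.4 RPKM from 4 to 24 h, so that the first 2 time points stood above rest. Th1 cultures held 46.9, 34.5, 26.1, 34.4, 25.3 and 15.6 RPKM, and Th2 cultures 35.2, 17.5, 18.1, 21.1, 14.4 and 10.3. Ranges of neighbouring time points overlapped throughout. At 24 h S1pr4 had fallen by 1.51 on the log2 scale (SE 0.401; limma, adjusted p = 0.00351). At 20 h the difference of -0.998 had an adjusted p of 0.0384 (limma) but fell just short of 2-fold. The other S1P receptors were low: S1pr3 and S1pr5 had a mean under 1 RPKM, and S1pr2 was at 2.99 RPKM at rest and between 3.97 and 6.33 in the cultures.

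**Figure D1:**
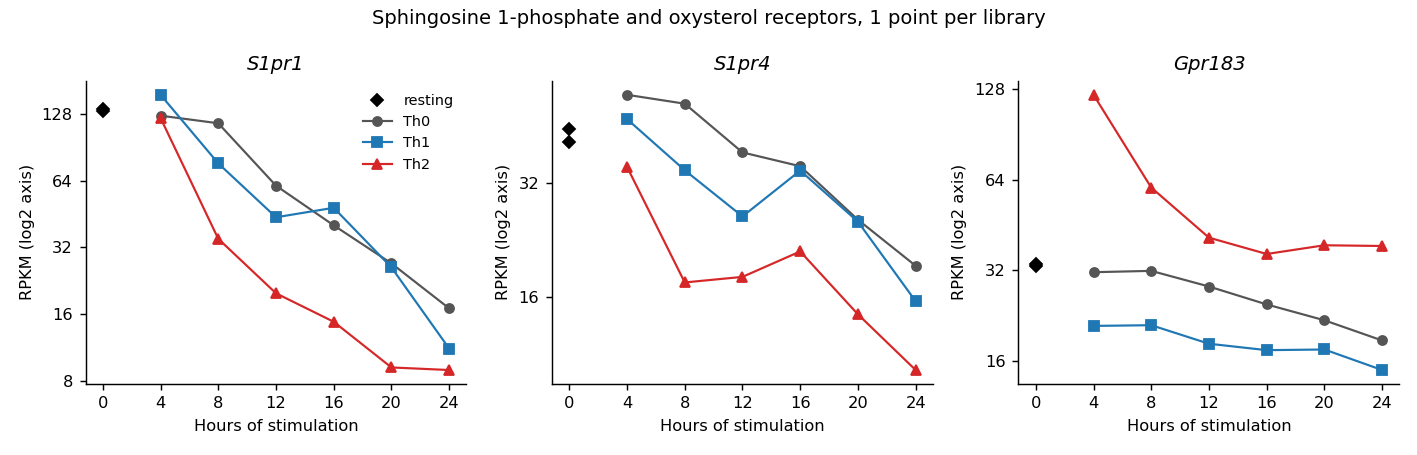
RPKM on a log2 axis against hours of stimulation for the S1P receptors S1pr1 and S1pr4 and the oxysterol receptor Gpr183, with 1 point per library (diamonds, 2 resting libraries; circles, Th0; squares, Th1; triangles, Th2). Both S1P receptors were below rest at 24 h in all conditions and lowest in Th2, whereas Gpr183 stood above rest in all 6 Th2 cultures and below it in all 12 others.

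Cxcr4, the receptor for CXCL12, had the lowest log2 difference from rest of the 7 at 24 h. It was at 94.6 and 102 RPKM at rest. Th0 cultures held 92.1, 50.4, 26.5, 18.6, 12.9 and 8.80 RPKM from 4 to 24 h, and Th1 cultures 74.3, 31.2, 15.4, 12.5, 7.17 and 4.61. Th2 cultures held 88.0, 28.0, 20.3, 14.5, 6.88 and 6.37 RPKM. The values at rest, 4 h, 8 h and 12 h did not overlap. The log2 difference from rest was -1.46 ± 0.304 (SE) at 8 h, where Cxcr4 was the member called (limma, adjusted p = 0.000880), and -3.84 ± 0.304 at 24 h (limma, adjusted p = 2.20e-08). Cxcr5, the receptor for entry into follicles, was low and fell by 1.76 on the log2 scale by 24 h (SE 0.189; limma, adjusted p = 9.09e-07). It was at 8.16 and 8.02 RPKM at rest, 6.21 to 6.70 at 4 h, 3.73 to 5.37 at 8 h, 3.08 to 3.35 at 12 h, 1.90 to 3.24 at 16 h, 1.40 to 2.05 at 20 h and 1.64 to 2.41 at 24 h. B cells carry both receptors as well, and the sum of B cell markers fell from 54.4 to 76.9 RPKM at 4 h to 17.8 to 26.0 at 24 h. The part of B cell transcripts in the falls of Cxcr4 and Cxcr5 was not tested. Over the same time, the sum over 5 markers of follicular helper T cells, which carry CXCR5, was 191 to 254 RPKM at 4 h and 211 to 257 at 24 h, against 89.6 to 91.9 at rest. These markers did not move together: at 24 h against rest Icos and Pdcd1 were called higher, Tox2 was called lower, and Sh2d1a and Il21 were not called (limma).

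Ccr4 and Gpr183 were not called at any time point against rest. Ccr4 had a log2 difference of 2.29 at 24 h with an SE of 1.10 (limma, adjusted p = 0.0767), and Gpr183 one of -0.58 with an SE of 0.613 (limma, adjusted p = 0.417). At each time point the 3 conditions stood far apart for Ccr4, and Th2 stood above the others for Gpr183. This spread entered the error. Analysed without the Th2 cultures, Ccr4 at 24 h had a log2 difference of 1.61 (limma, adjusted p = 0.00377) and was called. Gpr183 at 24 h was not called in that analysis or in any other alternative, with log2 differences of -0.97 to -0.31.

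**Figure D2:**
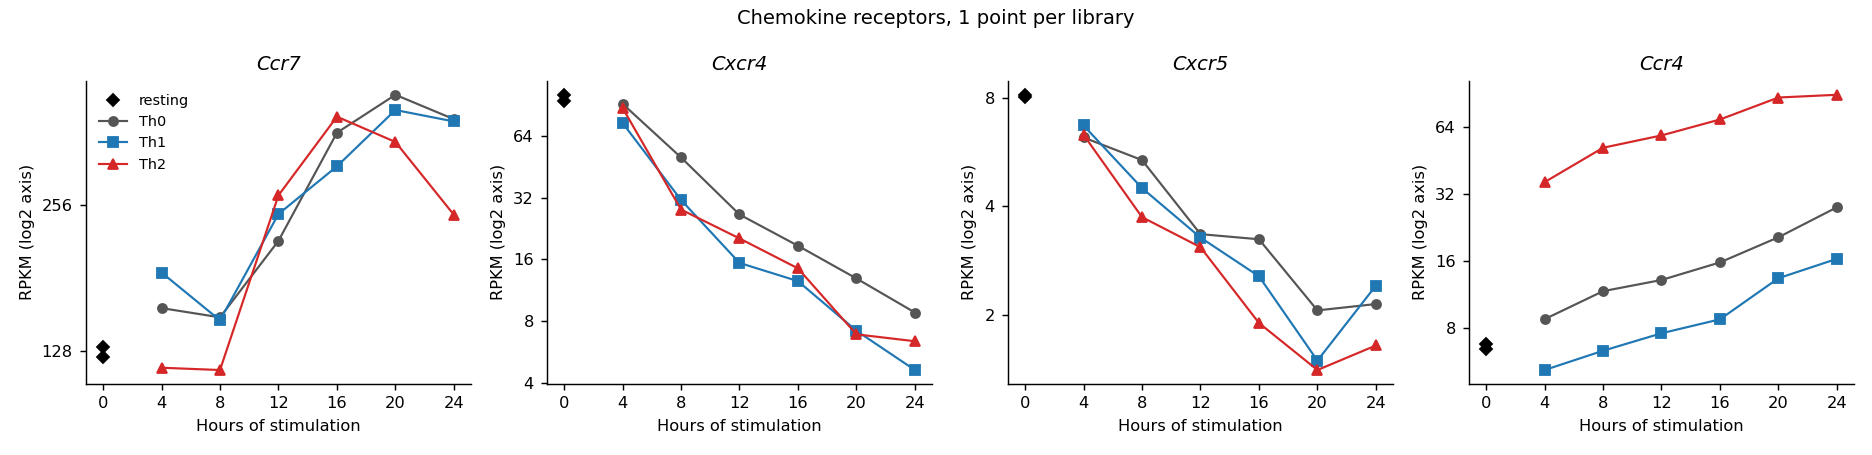
RPKM on a log2 axis against hours of stimulation for the 4 chemokine receptors, with 1 point per library and symbols as for the S1P receptors. Ccr7 was above rest in all cultures from 12 h, Cxcr4 and Cxcr5 were below rest in all 18 cultures, and Ccr4 kept the order Th2, Th0, Th1 throughout.

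Next, the conditions were compared among the 18 cultures in a model that also held the time point, so that each condition was represented by its 6 time points. All cultures came from 1 pool of cells, and the p-values measure the spread around parallel courses. The study's figure legend has cells taken from the cultures over time, so the time points of a condition may share a culture. They are not replicates of the condition. Against Th0, 2 of 7 members were called in Th2 beside 2.01% of all genes, Ccr4 higher and S1pr1 lower. Against Th1, 3 of 7 were called in Th2 beside 1.96% of all genes, Ccr4 and Gpr183 higher and S1pr1 lower. Between Th1 and Th0, 0 of 7 were called beside 0.494% of all genes (limma), although 2 had an adjusted p under 0.05 and 4 an unadjusted p under 0.05. The comparisons share cultures, so they are not independent.

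Ccr4, the receptor for CCL17 and CCL22, set the Th2 cultures apart from the earliest time point. Against 6.85 and 6.46 RPKM at rest, Th2 cultures held 36.1 RPKM at 4 h, 51.5 at 8 h, 58.5 at 12 h, 68.9 at 16 h, 86.4 at 20 h and 88.9 at 24 h. Th0 cultures held 8.79, 11.7, 13.2, 15.8, 20.5 and 27.9 RPKM at these times, and Th1 cultures 5.21, 6.35, 7.61, 8.78, 13.4 and 16.4. The order Th2, Th0, Th1 was the same at all 6 time points, and the lowest Th2 value lay above the highest of the other 12 cultures. The ratio of Th2 to Th0 was 4.11 at 4 h (95% interval 3.60 to 4.69), 4.44 at 12 h (4.02 to 4.91) and 3.19 at 24 h (2.97 to 3.42), intervals that cover counting error only. Across all times, the log2 difference from Th0 was 1.99 ± 0.0751 (SE; limma, adjusted p = 2.04e-10), or 3.99-fold. From Th1 it was 2.74 ± 0.0751 (limma, adjusted p = 1.57e-12), or 6.66-fold. Th1 cultures stood below Th0 by less than 2-fold, with a log2 difference of -0.74 and a 95% interval of -0.90 to -0.58 (limma, adjusted p = 6.45e-05).

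Of the 7 ligand genes of the chemokine receptor members, Ccl17 and Ccl22 were tested, and both were called higher in Th2 than in Th0 and in Th1. Ccl22 was at 0.480 and 0.441 RPKM at rest and reached 78.2 RPKM in Th2, 39.3 in Th0 and 15.3 in Th1 cultures. It was higher in Th2 than in Th0 by 1.05 on the log2 scale (limma, adjusted p = 0.000373). Ccl17 was between 3.08 and 11.7 RPKM in Th2 cultures, 0.160 and 3.22 in Th0 and at most 1.14 in Th1, with a log2 difference between Th2 and Th0 of 1.97 (limma, adjusted p = 5.25e-05). The highest levels of Ccl19, Ccl21a, Cxcl12 and Cxcl13 in any culture were 0.352, 0.363, 0.363 and 0.390 RPKM, and Ccl21b was listed at 0 in all of them. Ccr4 correlated with Ccl17 (Pearson r = 0.88) and Ccl22 (0.74) across the 20 libraries of the time course, which share the order of conditions. Which cells in the cultures made these 2 transcripts was not tested. Among the chemokine receptors outside the 7, 8 of 17 were tested here, where 2.01% of all genes were called for Th2 against Th0. As an example, Ccr8, another receptor known from Th2 cells, was called higher in Th2 than in Th0 (log2 difference 1.13, limma, adjusted p = 0.000305). Ccr8 is 1 gene of these 8 and does not stand for the others, whose directions are not given here.

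Gpr183, the oxysterol receptor, stood above rest in Th2 cultures and below it in the others. It was at 33.7 and 33.1 RPKM at rest. In Th2 cultures it peaked at 122 RPKM at 4 h and was at 60.2, 41.1, 36.3, 38.8 and 38.6 RPKM from 8 to 24 h, above rest in 6 of 6. In Th0 cultures it was at 31.6, 31.9, 28.3, 24.7, 21.9 and 18.8 RPKM and in Th1 cultures at 21.0, 21.1, 18.3, 17.4, 17.5 and 15.0, below rest in 12 of 12. Again the order was Th2, Th0, Th1 at all 6 time points. The ratio of Th2 to Th0 was 3.87 at 4 h (95% counting interval 3.62 to 4.14), 1.45 at 12 h (1.34 to 1.58) and 2.06 at 24 h (1.88 to 2.25). Across all times, the log2 difference from Th1 was 1.44 ± 0.154 (SE; limma, adjusted p = 8.54e-06). From Th0 it was 0.96 ± 0.154 (limma, adjusted p = 0.000355), just under 2-fold, and it passed that mark with median-of-ratios scaling (1.00) and without the 12 h (1.04) or 16 h (1.04) time point. Transcripts of other spleen cells also differed between conditions. At 4 h the sum of B cell markers was 76.9 RPKM in Th2, 66.3 in Th0 and 54.4 in Th1 cultures. That of monocytes and macrophages was 85.9, 66.4 and 52.1, but at 24 h it was lowest in Th2 (11.2). The part of other cells in the Gpr183 values was not tested.

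S1pr1 was lower in Th2 cultures than in both other conditions. At 4 h the Th2 to Th0 ratio was 0.976 with a counting interval of 0.935 to 1.02, and by 8 h it was 0.301 (0.281 to 0.322). It stayed between 0.326 and 0.367 from 12 to 20 h and was 0.527 (0.462 to 0.600) at 24 h. The log2 difference over the time points was -1.19 ± 0.186 (SE) from Th0 (limma, adjusted p = 0.000270) and -1.004 ± 0.186 from Th1 (limma, adjusted p = 0.00154). The latter was at the 2-fold mark and dropped below it in 7 of the alternative analyses. Its difference between Th1 and Th0 was -0.19 with a 95% interval of -0.58 to 0.21, which leaves room for a small change either way. S1pr4 was highest in Th0 and lowest in Th2 at all 6 time points. It was lower in Th2 than in Th0 by a log2 difference of -0.94 with a 95% interval of -1.15 to -0.72 (limma, adjusted p = 7.48e-06), and than in Th1 by -0.66 (limma, adjusted p = 0.000285).

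The remaining members differed by less than 2-fold between conditions. Cxcr4 was highest in Th0 at all 6 time points, with a log2 difference of -0.66 in Th1 (limma, adjusted p = 0.00129) and -0.49 in Th2 (limma, adjusted p = 0.00212). Cxcr5 was lowest in Th2 at 5 of 6 time points, by -0.32 from Th0 (limma, adjusted p = 0.0252). For Ccr7 no condition was highest throughout: its difference between Th2 and Th0 was -0.22 (95% interval -0.47 to 0.03) and between Th1 and Th0 0.0094 (-0.24 to 0.26). At 24 h Ccr7 was at 0.636 of the Th0 level in Th2 (95% counting interval 0.616 to 0.656), with 1 library each.

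**Figure D3:**
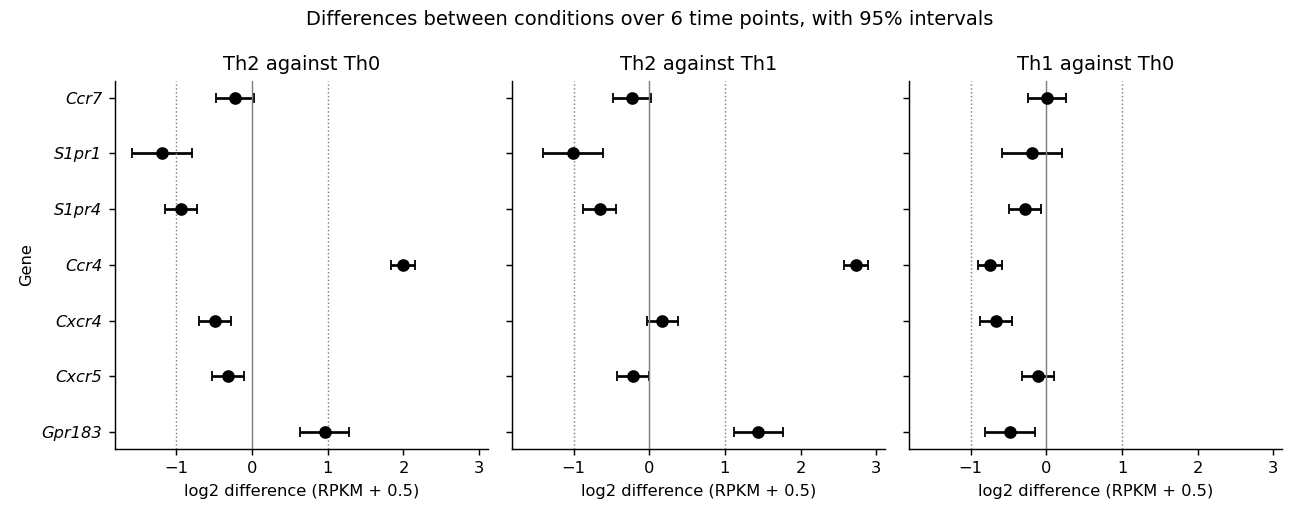
Log2 differences of RPKM + 0.5 between conditions over the 6 time points for each member (points) with 95% intervals from limma (bars). Dotted lines mark 2-fold. Ccr4 and Gpr183 lie to the right and S1pr1 and S1pr4 to the left of 0 in both comparisons of Th2.

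Whether these differences changed steadily with time was tested by a slope for each condition over the 20 h from 4 to 24 h. A straight line cannot show differences that turn back, as the S1pr1 and Gpr183 ratios of Th2 to Th0 given above did. None of the 7 was called (limma) for Th2 against Th0, Th2 against Th1 or Th1 against Th0, where 3.93%, 0.95% and 0.0279% of all genes were called. The numbers of members with an unadjusted p under 0.05 were 0, 1 and 0. This was Gpr183, whose slope was lower in Th2 than in Th1 by 1.01 ± 0.381 log2 units over 20 h (SE; limma, adjusted p = 0.189). Against Th0 the Gpr183 slope differed by -0.69 ± 0.381, and by 0.25 without the 4 h time point.

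Genes known to act on trafficking were examined alongside. Klf2, which encodes the activator of S1pr1 transcription, was at 158 and 185 RPKM at rest and fell to 24.9 RPKM in Th0, 16.3 in Th1 and 9.67 in Th2 cultures at 24 h. It was called lower at 24 h than at rest (log2 difference -3.39, limma, adjusted p = 4.78e-05) and in Th2 than in Th0 (-1.31, limma, adjusted p = 1.18e-06). Across the 20 libraries of the time course, which share time and condition, the Pearson r with Klf2 was 0.98 for S1pr1 and 0.96 for S1pr4. It was 0.91 for Cxcr4, 0.88 for Cxcr5 and 0.14 for Gpr183, but -0.68 for Ccr7 and -0.73 for Ccr4. Cd69, whose product removes S1PR1 from the cell surface, was at 187 and 179 RPKM at rest and between 152 and 477 in the cultures, and was called at no time point against rest. Its log2 difference from rest was 0.53 at 4 h (limma, adjusted p = 0.131) and 0.01 at 24 h (limma, adjusted p = 0.969). At 8 h (0.89, limma, adjusted p = 0.00908) and 12 h (0.98, limma, adjusted p = 0.00371) it passed the p threshold and stayed just under 2-fold. Foxo1, encoding a factor upstream of Klf2, was called lower at 24 h than at rest (-1.37, limma, adjusted p = 3.05e-07). Of the 15 listed regulators, 14 were tested, and 0 rose and 5 fell at 24 h, a share near the 30.1% of all genes called.

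S1pr1, S1pr4, Cxcr4 and Cxcr5 had similar courses. Over the 20 libraries, S1pr1 correlated with S1pr4 (Pearson r = 0.93), Cxcr4 (0.92) and Cxcr5 (0.92), and Cxcr4 with Cxcr5 (0.95). Ccr7 ran against Cxcr5 (-0.84) and Cxcr4 (-0.83), and Gpr183 was closest to Ccr4 (0.51). Among genes whose mean was 5 RPKM or more, the course of S1pr1 was most like those of Samd9l (0.99), Gimap6 (0.99) and Trim12a (0.98), and that of S1pr4 like those of Sfxn3, Pecam1 and Arhgef18 (0.98, 0.97 and 0.97). Ccr7 was most like Hibadh (0.96), Atxn1 (0.94) and Praf2 (0.93), Ccr4 like Hemk1 (0.89), Otulin (0.89) and Id1 (0.87), and Gpr183 like Prnp (0.92), Trib1 (0.87) and Atf3 (0.85). Cxcr5 was most like Afmid, Ube2l6 and Isg20 (each 0.97). The nearest to Cxcr4 were Itpkb (0.99) and a pair of immunoglobulin genes of the B lineage, Igkv4-71 and Ighv6-5 (0.98 each). Sums over 3 plasma cell genes were 814 to 815 RPKM at rest and 28.7 to 44.4 at 24 h, and their part in this likeness was not tested.

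Finally, the members were followed after transcription had been blocked with actinomycin, with 1 library per time. RPKM values are relative to the RNA left, so a gene falls only where it is lost faster than most others, and the median log2 change over all genes tested was 0.01. The spread in this test is the deviation of a gene from a line through 4 libraries, shared between genes. Of the 7 members, 2 were called for a fall, Gpr183 and Ccr4, beside 9.55% of all genes called in either direction. Gpr183 was at 35.5 RPKM at 0 h, 22.0 at 1 h, 11.8 at 2 h and 6.80 at 4 h, of which 19.1% was left at 4 h. Its log2 change over the 4 h was -2.31 ± 0.258 (SE; limma, adjusted p = 2.53e-13), and 0.0568% of the 10571 genes tested had a lower one. Ccr4 was at 41.7, 38.3, 31.2 and 20.3 RPKM, with 48.7% left and a log2 change of -1.06 ± 0.233 (limma, adjusted p = 0.000222). The call of Ccr4 was lost without the 4 h library (-0.82, limma, adjusted p = 0.345).

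The other members were not called. Ccr7 was at 597, 626, 469.9 and 348 RPKM, with 58.3% left at 4 h (log2 change -0.86, limma, adjusted p = 0.00637). The 4 h value was within the 307 to 388 RPKM of the cultures at 16 h, and the 0 h library lay above all 18 cultures. In the 0 h library, S1pr4 also lay below the 21.1 to 35.3 RPKM of the cultures at 16 h, and Cxcr4 above their 12.5 to 18.6. S1pr1, Cxcr5, Ccr4 and Gpr183 were within the ranges of those cultures. S1pr1 was at 26.0, 18.8, 20.2 and 14.6 RPKM, with 56.1% left (-0.72, limma, adjusted p = 0.0254). S1pr4 was at 15.5, 14.7, 10.9 and 11.2 RPKM, with 72.0% left (-0.50, limma, adjusted p = 0.176). Cxcr4 did not fall steadily: it was at 27.4, 14.0, 11.7 and 16.6 RPKM, and its log2 change of -0.54 (limma, adjusted p = 0.142) was 0.42 without the 0 h library. Cxcr5 was at 2.17, 1.22, 1.59 and 0.932 RPKM, with a log2 change of -0.75 (limma, adjusted p = 0.178). Klf2 was called as well, going from 32.3 to 7.80 RPKM (-1.93, limma, adjusted p = 1.14e-09), as was Cd69, from 178 to 42.2 RPKM (-2.15, limma, adjusted p = 1.70e-14).

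**Figure D4:**
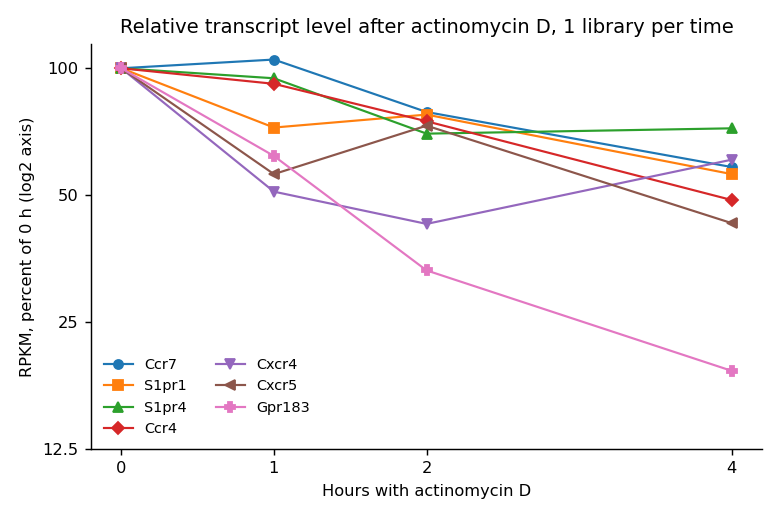
RPKM as percent of the 0 h library (log2 axis) against hours with actinomycin for the 7 members, with 1 library per time and no replicates. Gpr183 reached 19.1% at 4 h, while the other 6 were between 42.9% and 72.0%.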

How the data were processed

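RNA sequencing values of 24 libraries were analysed, with groups taken from the labels. The authors deposited RPKM per gene symbol; the submitters' processing notes name BWA and GRCm38, and the counting step is not given in the sources used here. The table held 22010 entries, 1 without a name, which was left out. Cells of several mice had been pooled; the labels describe purified CD4+ cells, the study's methods naive cells.

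Mapped reads per library were recovered from RPKM steps: in 1769 of 2778 single-transcript genes (63.7%) the values were whole reads within 0.02 of a read. Even numbers dominated, as when both mates of a pair are counted, so the exact 95% intervals were computed on pairs and cover counting error only. They are given for Ccr7, S1pr1, S1pr4, Ccr4 and Gpr183; the steps of Cxcr4 and Cxcr5 could not be resolved.

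Tests were carried out with limma 3.58.1 (intensity trend, empirical Bayes) on log2(RPKM + 0.5), for genes whose mean was 1 RPKM or more, with Benjamini-Hochberg adjustment over all of them. Each combination of condition and time point, called a culture here, was sequenced once, so p-values measure the spread between time points or conditions. Libraries of the same condition may be repeated samples of the same culture. The fits treated them as independent, and the p-values do not measure spread between replicate cultures or mice. The fits were tested on simulated data. Gene models were GENCODE M21. Named genes were the 7 members, for each the 3 genes of most similar course, and genes of lists of other chemokine and S1P receptors, ligands, lipid enzymes, regulators and signalling that passed a test or are direct partners of a member. The members and lists were chosen with earlier results of these data known. Python 3.11.15, numpy 2.4.6, pandas 2.3.3 and scipy 1.17.1 were used. Alternatives were other pseudocounts (0.1, 1), filters (none, 5 RPKM) and scalings, no trend, fewer libraries, and leaving out each resting library, condition or time point; scaling without red blood cell genes was added after seeing the data.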

Additional observations from a re-analysis of the deposited data

Results flagged for a closer look

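Gpr183 was above both resting libraries in 6 of 6 Th2 cultures. It was below both in 6 of 6 Th0 and 6 of 6 Th1 cultures. Some of these distances were small. Th0 cultures were at 0.945 of the resting mean at 4 h and 0.954 at 8 h, and the Th2 culture at 16 h was at 1.09. Th1 cultures were at 0.631 or less. No counting interval is given for these ratios. Rest may also be offset from all cultures, because its 2 libraries were labelled with a different tag. The side of rest is therefore descriptive. The log2 difference of Th2 over the time points was 0.96 against Th0 (limma, adjusted p = 0.000355) and 1.44 against Th1 (limma, adjusted p = 8.54e-06). The difference between Th2 and the others at single time points had 1 library each and was not tested.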

How the results depend on the processing

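The differences of single members, and the counts of members called, were recomputed under alternatives. Of 1144 such values of single genes, 1097 kept their direction and side of the threshold, 19 passed it in addition, 13 lost it and 15 changed sign. Counts of members called stayed within 1.5 times, between 4 and 6 at 24 h against rest, 2 and 3 for Th2 against Th0 and 2 and 3 for Th2 against Th1, and at 0 for 4 h, for Th1 against Th0 and for slopes. With quantile normalization, the log2 difference was -0.070 for S1pr1 at 4 h, -0.043 for Ccr7 at 8 h, -0.026 for Gpr183 at 8 h and -0.044 for Ccr7 in Th1 against Th0, which was -0.042 over 12 to 24 h alone. When single resting libraries, conditions, time points or actinomycin libraries were left out, these values also changed sign: S1pr1 at 4 h (-0.099 to 0.074), S1pr4 at 4 h (-0.067 to 0.24), Gpr183 at 4 h (-0.37 to 0.89), 8 h (-0.36 to 0.39) and 12 h (-0.54 to 0.029), Ccr7 in Th1 against Th0 (-0.037 to 0.057), the Gpr183 slope in Th2 against Th0 (-1.30 to 0.25) and the Cxcr4 slope after actinomycin (-2.39 to 0.42). None of these was called in the reported analysis. Gpr183 was negative at 4 and 8 h without the Th2 cultures, Gpr183's slope positive without 4 h, and Cxcr4's slope positive without the 0 h library and called without the 4 h library (adjusted p = 0.00522). Ccr4 at 24 h against rest, at an adjusted p of 0.0767, was called in 4 alternatives, with only the libraries compared (0.0143), with quantile normalization (0.0412) and without the Th1 (0.0449) or Th2 cultures (0.00377). Ccr7 at 24 h against 4 h fell under 2-fold with quantile normalization (0.92) and with scaling that left out red blood cell genes (0.99). Of all genes, 646 in place of 1152 were called at 4 h and 1334 in place of 2059 at 8 h when genes under a mean of 5 RPKM were left out, and after actinomycin 531 to 1093 in place of 1010. For slopes the counts ranged from 82 to 1978 for Th2 against Th0 (422 reported), 22 to 278 for Th2 against Th1 (102) and 0 to 45 for Th1 against Th0 (3), and the cause was not tested. No analysis paired by replicate was possible, as each culture has 1 library. Cultures were matched by time point in the comparisons of conditions, and by condition in the alternative for 24 h against 4 h. There Ccr4 was called in addition (limma, adjusted p = 1.07e-08). With 1 library per culture, differences at single time points have no replicate check, and depth limits values of a few RPKM, such as those of Cxcr5.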

Other observations

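Genes that shape how these receptors signal were examined as well. Of 21 listed genes of receptor desensitisation and signalling, 20 were tested, and at 24 h against rest 1 was called higher and 9 lower, beside 30.1% of all genes called in either direction. Rgs16, a brake on G-protein signalling, was called higher (log2 difference 2.47, limma, adjusted p = 8.36e-05). Arrb1 (-3.18, limma, adjusted p = 2.05e-08), encoding a beta-arrestin that takes receptors out of action, and Rgs2 (-2.92, limma, adjusted p = 9.03e-08) were called lower. None of the 20 was called between conditions over the time points, and 2 were called for a lower slope in Th2 than in Th0, beside 3.93% of all genes called.

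Of 10 listed enzymes and transporters of the lipid ligands, 6 were tested against rest, and 2 were called lower at 24 h, a share near the 30.1% of all genes called. They were Sphk1 (-2.99, limma, adjusted p = 6.33e-08), encoding a kinase that makes S1P, and Mfsd2b (-3.76, limma, adjusted p = 9.26e-11), encoding an S1P exporter of red blood cells, whose genes fell over the same time. Ch25h, encoding the enzyme that starts synthesis of the ligand of GPR183, was at most 0.256 RPKM in any culture.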
